A study of Mus musculus with 5 samples.

Results

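The genes described here are 54 genes of the G2 and M phases of the cell cycle, the stretch in which a cell with copied chromosomes condenses them, builds a spindle, separates the copies and divides. They were taken as a list of gene symbols, all 54 of which were among the 32285 genes of the count tables. The rule itself names symbols only, but the list was chosen with earlier results of these data known. The list largely matches its label. Most members named below have a textbook function in chromosome condensation, spindle assembly, the checkpoint, chromosome separation, cytokinesis or the nuclear envelope. Others are common markers of cycling cells or, like Anp32e and Cbx5, chromatin proteins of wider use.

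Cells in G2 and M accumulate the transcripts of these genes because a shared set of promoters is held off in resting cells and opened late in the cycle. The DREAM complex represses many of them in resting cells, and MuvB with B-MYB and then FOXM1 activates them in cycling cells. A short promoter element, the cell cycle genes homology region (CHR), is one contact point of these complexes, and CCAAT boxes bound by NF-Y often lie next to it. Some of the encoded proteins are destroyed through the anaphase-promoting complex as cells leave mitosis. In 3T3-L1 cells the hormonal cocktail that starts adipogenesis is also known to send confluent, arrested preadipocytes through a limited number of divisions, called mitotic clonal expansion, before they leave the cycle and store fat.

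RNA of single cells was sequenced from 3T3-L1, an established mouse fibroblast line that can become adipocytes. There was 1 library per group: preadipocytes at day 0 without cocktail or polymer, cells at day 3 and at day 6 after induction with dexamethasone, insulin and IBMX, and cells at the same days that had also received P-G3, a polycationic PAMAM polymer, at 10 µg/mL from day 0. The untreated libraries of days 3 and 6 carried the cocktail too, and a single line models adipocytes here without the other cells of fat tissue. With 1 library per group there was no replicate, so no test between groups was possible, and every interval below covers counting error only.

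The 5 libraries held 3247 to 5719 barcodes, of which 2468 to 3893 per library were kept, with 88432894 to 179221992 UMIs. The median kept cell of day 0 had 47503.5 UMIs. Median cells of day 3 had 34720.5 (untreated) and 40306 UMIs (P-G3), and those of day 6 had 34214.5 and 16657.5. Any pair of libraries shared 4 to 7 barcodes. Adipocyte markers summed to 203.9 CPM (UMIs of a gene scaled to a common library total) on day 0 and to 36335 CPM on day 6 untreated, and markers of other cell types were low. The 5 macrophage markers summed to 1.86 to 3.33 CPM, with Adgre1 at 0 UMIs in every library. The 5 skeletal muscle markers summed to 4.21, 5.07, 5.89, 29.1 and 24.2 CPM from day 0 to day 6 with P-G3, nearly all of it Des (29.0 CPM on day 6 untreated), with Myod1 and Myf5 at 0 UMIs in every library, which allows up to 0.0167 to 0.0339 CPM. Des was thus higher on day 6, and its part in the results below was not tested.

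The promoters of the members are shown first, and their part in the differences between libraries was not tested. RefSeq windows of 300 bases (GRCm38.p6), from 250 before to 50 after the start, were found for 48 of the 54 members. Some of these had more than 1 start, which gave 54 windows. No entry was found for Aurkb, Cdc25c, Cdca2, Dlgap5, Smc4 and Tpx2. The 250 bases before the start are printed for the cyclin-dependent kinase Cdk1 and its cyclin Ccnb1, for Cdc20 and Ube2c of the anaphase-promoting complex, for the spindle motor Kif11, and for the members with the lowest and the highest day 6 to day 3 ratio, Nusap1 and Anp32e. Each is read 5′ to 3′ on the strand of the gene, and the capitals mark CHR letters (TTTGAA or TTTAAA) and CCAAT letters found on either strand. The windows are chr10:69352913-69353162 (minus strand) for Cdk1, chr13:100786487-100786736 (minus) for Ccnb1, chr4:118437344-118437593 (minus) for Cdc20, chr2:164769679-164769928 (plus) for Ube2c, chr19:37376132-37376381 (plus) for Kif11, chr2:119618048-119618297 (plus) for Nusap1 and chr3:95929007-95929256 (plus) for Anp32e.
Cdk1: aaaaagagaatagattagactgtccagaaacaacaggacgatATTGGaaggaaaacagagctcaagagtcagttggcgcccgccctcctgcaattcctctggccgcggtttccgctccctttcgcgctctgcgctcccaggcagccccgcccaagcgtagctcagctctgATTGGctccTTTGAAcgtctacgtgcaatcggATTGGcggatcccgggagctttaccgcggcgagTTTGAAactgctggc
Ccnb1: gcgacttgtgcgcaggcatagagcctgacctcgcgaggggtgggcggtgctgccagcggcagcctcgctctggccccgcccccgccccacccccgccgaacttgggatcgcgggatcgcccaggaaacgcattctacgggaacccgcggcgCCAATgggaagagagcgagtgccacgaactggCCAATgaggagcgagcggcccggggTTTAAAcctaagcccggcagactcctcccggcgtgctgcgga
Cdc20: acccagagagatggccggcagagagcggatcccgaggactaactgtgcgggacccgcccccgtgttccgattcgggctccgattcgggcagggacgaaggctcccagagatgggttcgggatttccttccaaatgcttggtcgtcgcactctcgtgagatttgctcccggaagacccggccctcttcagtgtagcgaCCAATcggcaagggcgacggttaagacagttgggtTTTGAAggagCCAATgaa
Ube2c: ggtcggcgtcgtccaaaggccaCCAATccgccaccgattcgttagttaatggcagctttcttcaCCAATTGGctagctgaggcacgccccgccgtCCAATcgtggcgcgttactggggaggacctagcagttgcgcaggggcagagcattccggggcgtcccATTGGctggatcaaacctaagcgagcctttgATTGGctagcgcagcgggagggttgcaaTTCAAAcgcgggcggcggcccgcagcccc
Kif11: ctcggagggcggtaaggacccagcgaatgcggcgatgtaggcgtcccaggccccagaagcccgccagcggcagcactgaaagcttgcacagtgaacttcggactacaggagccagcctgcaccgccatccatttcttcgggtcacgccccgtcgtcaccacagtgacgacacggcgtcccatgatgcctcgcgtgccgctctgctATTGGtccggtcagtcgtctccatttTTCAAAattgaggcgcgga
Nusap1: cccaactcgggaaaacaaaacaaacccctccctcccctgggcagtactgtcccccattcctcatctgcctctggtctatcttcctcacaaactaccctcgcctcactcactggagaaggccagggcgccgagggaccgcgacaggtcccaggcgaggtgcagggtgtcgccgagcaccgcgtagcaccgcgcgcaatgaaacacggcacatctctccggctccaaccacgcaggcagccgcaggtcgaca
Anp32e: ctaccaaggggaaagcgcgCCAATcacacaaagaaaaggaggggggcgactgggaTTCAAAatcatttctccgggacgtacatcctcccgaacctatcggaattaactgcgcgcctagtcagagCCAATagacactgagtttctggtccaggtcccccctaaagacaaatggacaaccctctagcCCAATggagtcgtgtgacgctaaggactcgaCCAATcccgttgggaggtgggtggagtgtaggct
In Ccnb1 a TTTAAA began 42 bases before the start, with CCAAT letters beginning 67 and 99 bases before it. In Cdc20 the TTTGAA began 18 bases before the start, and in Kif11 its reverse complement began 19 bases before it. Ube2c held 1 CHR match, 29 bases before the start, and 6 CCAAT matches, 2 of which overlap on opposite strands, and Cdk1 held 2 and 3. Anp32e also held both, but its only CHR match lay 195 bases before the start. Nusap1 held neither.

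A gene was counted for a motif if at least 1 of its windows held it. CHR letters were found for 39 of the 48 members (81.3%), against 8261 of 27025 genes with a window (30.6%). Of the 7285 such genes that passed the level filter used below, 22.0% had them. CCAAT was found in 38 of 48 (79.2%; 41.1% of all genes), and 2 or more CCAAT in 29 of 48 (60.4%; 13.3%). CHR and CCAAT together were found in 32 of 48 (66.7%; 12.2%). Between 60 bases before and 50 after the start, CHR letters were in 31 of 48 (64.6%; 10.5%). The E2F letters TTTCGC were in 5 of 48 (10.4%; 4.58%) and TTCCCGCC in 1 of 48 (2.08%; 2.52%). Among genes that passed the level filter the shares, in order from CCAAT on, were 43.1%, 17.5%, 9.02%, 6.44%, 8.02% and 5.11%. All motifs were searched on both strands, and CHR letters can share an end letter with CCAAT. A match describes letters and is not a binding site. G2e3, Nuf2, Nusap1 and Tacc3 had neither a CHR nor a CCAAT match in these windows.

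Members were not equally abundant. Summed over the 54 genes they gave 3333 CPM on day 0 (0.333% of UMIs), 3668 CPM on day 3 untreated, 3925 CPM on day 3 with P-G3, 1237 CPM on day 6 untreated and 1223 CPM on day 6 with P-G3 (0.122%). The 3 libraries of days 0 and 3 thus lay close together and the 2 of day 6 lay well under them. Because UMIs were counted at transcript ends, levels of different genes are given per UMI and are not length-corrected. In sums over a library, fewer cells with a transcript and less of it per cell cannot be told apart, so cells are treated separately further below.

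**Figure D1:**
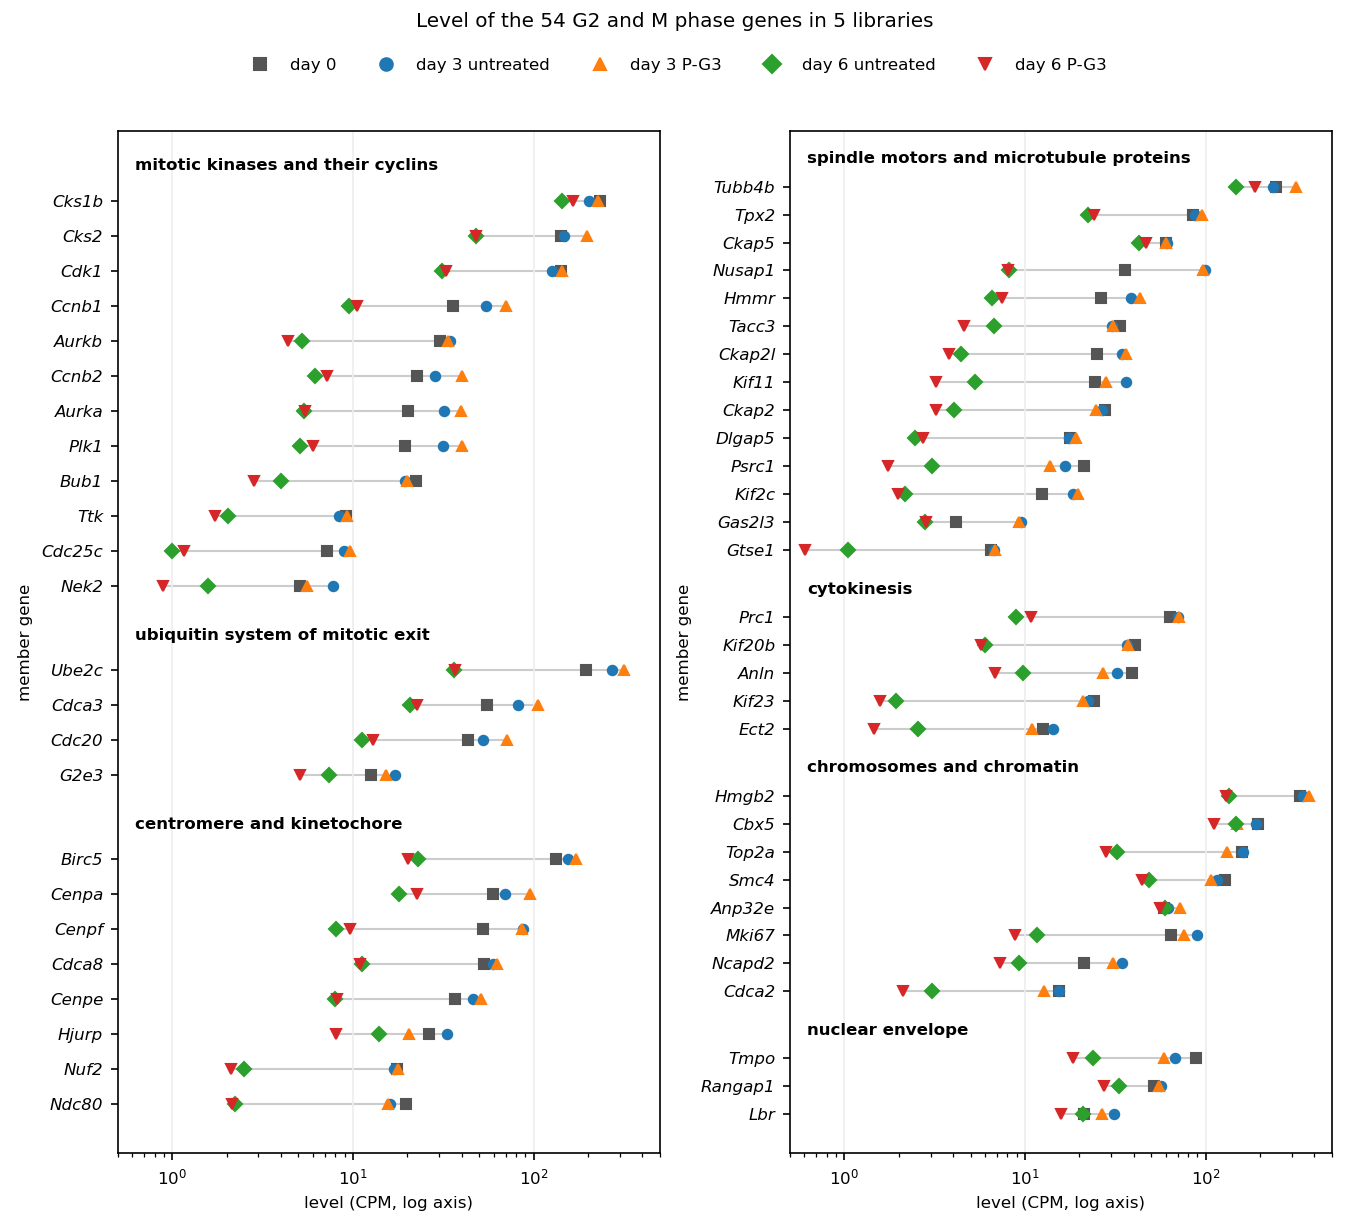
The level of each of the 54 genes in CPM (log axis) in the 5 libraries, 1 symbol per library, by role and from the highest to the lowest mean. For all but a few genes the day 6 symbols lie left of the other 3, and Anp32e and Ckap5 show the least spread.

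The first comparison set day 6 against day 3 without P-G3. All 54 members were lower on day 6. Of the 52 with a mean of at least 5 CPM over the 5 libraries (all but Nek2 and Gtse1), 45 were at least 2-fold lower and 0 at least 2-fold higher, where 5.55% of the 9044 genes passing this filter were at least 2-fold lower and 6.44% higher. The members' median log2 ratio was -2.10, against 0.04 for all 9044 genes. Here and below 1 CPM was added to both levels before their log2 ratio was taken, which pulls the ratios of low genes towards 0. The summed level was 2.97-fold lower. The 95% counting interval lay below 0 for all 54.

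Among the mitotic kinases and their cyclins, 10 of 11 tested members were at least 2-fold lower (median -2.04). The chromosome passenger kinase Aurkb had 30.2 CPM on day 0. It had 34.6 CPM (untreated) and 33.4 CPM (P-G3) on day 3, then 5.20 CPM (untreated) and 4.38 CPM (P-G3) on day 6, a day 6 to day 3 log2 ratio of -2.52 that was the lowest of the group. Cdk1, the kinase that drives entry into mitosis, had 141, 127, 144, 31.2 and 32.6 CPM in the same order. For both genes the 2 day 6 libraries lay far under the other 3. Cks1b, a small subunit of cyclin-dependent kinases and the most abundant gene of the group, had 233, 203, 228, 144 and 166 CPM, a log2 ratio of only -0.50 and the smallest difference of the group. Its sister gene Cks2 differed more, with 141, 147, 197, 47.8 and 48.3 CPM and a ratio of -1.60.

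In the ubiquitin system of mitotic exit, 4 of 4 members were at least 2-fold lower (median -2.04). Ube2c, the ubiquitin-conjugating enzyme of the anaphase-promoting complex, was both the most abundant and the most different, with 194, 270, 316, 36.1 and 36.9 CPM and a log2 ratio of -2.87 (interval -2.96 to -2.85 without the added 1 CPM). The ubiquitin ligase G2e3 differed least, with 12.5, 17.2, 15.3, 7.41 and 5.12 CPM (-1.11). Cdc20, the activator of the complex, lay between them with 43.6, 52.3, 71.3, 11.2 and 12.9 CPM (-2.13). The order of the libraries was the same for Ube2c and Cdc20.

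At the centromere and kinetochore, 8 of 8 members were at least 2-fold lower (median -2.37). Birc5 (survivin), a subunit of the chromosome passenger complex, was the most abundant with 133, 155, 171, 23.0 and 20.2 CPM (-2.70). Cenpf, a large kinetochore protein, had 52.5, 86.9, 86.6, 8.09 and 9.59 CPM (-3.27). Hjurp, the chaperone that loads the centromeric histone Cenpa, had 26.4, 33.2, 20.3, 14.0 and 8.02 CPM, the smallest difference of the group (-1.19).

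Of the spindle motors and microtubule proteins, 11 of 13 were at least 2-fold lower (median -2.39). Nusap1, which bundles spindle microtubules, had 35.9 CPM on day 0, 98.6 and 96.4 on day 3, and 8.2 and 8.04 on day 6, the lowest ratio of all members (-3.44). Tubb4b, a beta tubulin and the most abundant of the group, had 246, 234, 316, 148 and 187 CPM (-0.66). Ckap5, a microtubule polymerase that resting cells use too, had 60.3, 60.9, 60.1, 42.6 and 47.0 CPM (-0.50). Nusap1 shares exon bases with Oip5 on the other strand and Tubb4b with Fam166a, and whether reads were assigned by strand is not given in the sources used here.

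All 5 cytokinesis genes were at least 2-fold lower (median -2.42). The midzone bundler Prc1 had 63.7, 70.3, 71.5, 8.93 and 10.8 CPM (-2.84), the motor Kif23 of the central spindle had 24.1, 22.3, 21.0, 1.93 and 1.57 CPM (-2.99), and the ring scaffold Anln had 39.3, 32.2, 27.0, 9.78 and 6.85 CPM (-1.62). Kif23 was the least abundant of these on day 6. Before thinning it was present in 25.9% of all kept cells on day 3 untreated and in 2.6% on day 6. Among cells of at least 5000 UMIs, each thinned to 5000, it was present in 7.7% and 0.9%.

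Of the chromosome and chromatin genes, 6 of 8 were at least 2-fold lower (median -1.57). Hmgb2, a chromatin-bending protein and the most abundant member of all, had 332, 345, 372, 135 and 130 CPM (-1.35). Mki67, the coat protein of mitotic chromosomes used as a marker of cycling cells, had 64.0, 89.2, 75.6, 11.6 and 8.83 CPM (-2.84). Anp32e, a chaperone that removes the histone variant H2A.Z, was almost level at 58.8, 62.0, 72.5, 59.3 and 55.8 CPM (-0.06). The heterochromatin protein Cbx5 had 195, 189, 148, 147 and 111 CPM (-0.36). These 2 genes had the smallest differences of the 54.

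The nuclear envelope group differed least. Only 1 of 3 was at least 2-fold lower (median -0.75): Tmpo, a lamina-binding protein, with 88.7, 67.5, 58.7, 23.7 and 18.4 CPM (-1.47). The Ran GTPase activator Rangap1 had 51.9, 56.3, 55.4, 33.0 and 27.3 CPM (-0.75), and the lamin B receptor Lbr had 21.2, 31.2, 26.8, 20.9 and 15.8 CPM (-0.56). Across all groups, the 7 tested members that were under 2-fold lower were Anp32e, Cbx5, Cks1b, Ckap5, Lbr, Tubb4b and Rangap1. All 7 had CHR letters in at least 1 promoter window, as did 32 of the 41 others with a window. For Cbx5 only 1 of its windows held them.

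Against day 0, day 6 untreated gave nearly the same picture: 51 of 52 tested members were lower, 42 at least 2-fold (background 9.11%), and 0 were 2-fold higher (background 15.5%), with a median of -1.92. The exception was Anp32e at 0.01. With P-G3, day 6 against day 3 had 52 of 52 lower, 45 at least 2-fold (background 6.92%) and 0 at least 2-fold higher (background 5.24%), with a median of -2.35. The untreated day 6 library enters both untreated comparisons, so they are not independent of each other.

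Other mitotic genes were taken from a second list of 54 that shares no gene with the members. On day 6 against day 3 untreated, 49 of 49 tested were lower, 44 at least 2-fold, with a median of -1.92. The cyclin Ccna2 had 52.02, 55.6, 60.7, 9.46 and 7.57 CPM in the 5 libraries. Of 13 tested regulators of these genes, 11 were lower and 4 at least 2-fold lower. The activator Foxm1 had 17.6, 20.5, 12.9, 4.46 and 2.03 CPM, and its partner in the earlier step, Mybl2 (B-MYB), had 22.4, 10.5, 8.45, 2.97 and 1.47 CPM. By contrast Rbl1, a pocket protein of the repressor complex, had 9.70, 8.44, 5.64, 8.33 and 4.93 CPM, with a day 6 to day 3 ratio of -0.02. Of 43 S phase genes, 41 were lower and 28 at least 2-fold lower (median -1.29).

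The next comparison set day 3 without P-G3 against day 0. As a whole the members were at nearly the same level on day 3 as on day 0, with 34 of 52 higher and 18 lower and a median of 0.15, against 0.09 for all genes. TMM and median-of-ratios scaling move the split to 28 and 26 higher and the median to 0.04 and 0.00, so no direction is given for the list. Only Nusap1 (1.43) and Gas2l3, a linker of actin and microtubules (4.15 to 9.46 CPM, 1.02), were at least 2-fold higher (2 of 52, 3.85%, background 6.74%), and 0 were at least 2-fold lower (background 3.02%). The largest ratios after these were Cenpf (0.72), the kinase Plk1 (19.5 to 31.6 CPM, 0.67) and the condensin subunit Ncapd2 (21.3 to 34.4 CPM, 0.67), and the lowest were Tmpo (-0.39) and Psrc1 (-0.34). The median ratio of the 43 tested S phase genes was -0.47, and each of them was lower.

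The distribution over cells was then compared. Each cell of at least 5000 UMIs was thinned to 5000, and the share of its UMIs from the 54 genes was its G2/M share. Cells with a share of at least 1% made up 3.63% of 3200 cells on day 0 (interval 3.00 to 4.33%), 7.97% of 3500 on day 3 untreated (7.10 to 8.92%), 9.66% of 3800 on day 3 with P-G3 (8.74 to 10.6%), 0.302% of 1655 on day 6 untreated (0.0982 to 0.704%) and 0.911% of 2085 on day 6 with P-G3 (0.550 to 1.42%). Without thinning, over all kept cells, these shares were 3.52%, 7.84%, 9.61%, 0.284% and 0.62%. The share is a scale rather than a type of cell: 135, 299, 386, 9 and 15 cells lay between 0.8 and 1.2%.

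The day 0 cells were spread over the middle of the scale and the day 3 cells over its ends. Cells between 0.2 and 0.5% were 31.3% of the cells on day 0 and 14.5% on day 3 untreated, whereas cells under 0.2% were 49.1% and 62.5%. Cells of at least 0.5% were 19.6% on day 0 (interval 18.2 to 21.0%). On day 3 they were 23.0% of untreated cells (21.6 to 24.4%) and 26.4% of P-G3 cells (25.0 to 27.9%), and on day 6 they were 3.02% of untreated cells (2.25 to 3.96%) and 2.30% of P-G3 cells (1.70 to 3.04%). In the same order of libraries they held 51.4%, 71.6%, 73.0%, 24.4% and 23.4% of the members' UMIs. The summed level on day 3 untreated was 1.10 times that on day 0.

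**Figure D2:**
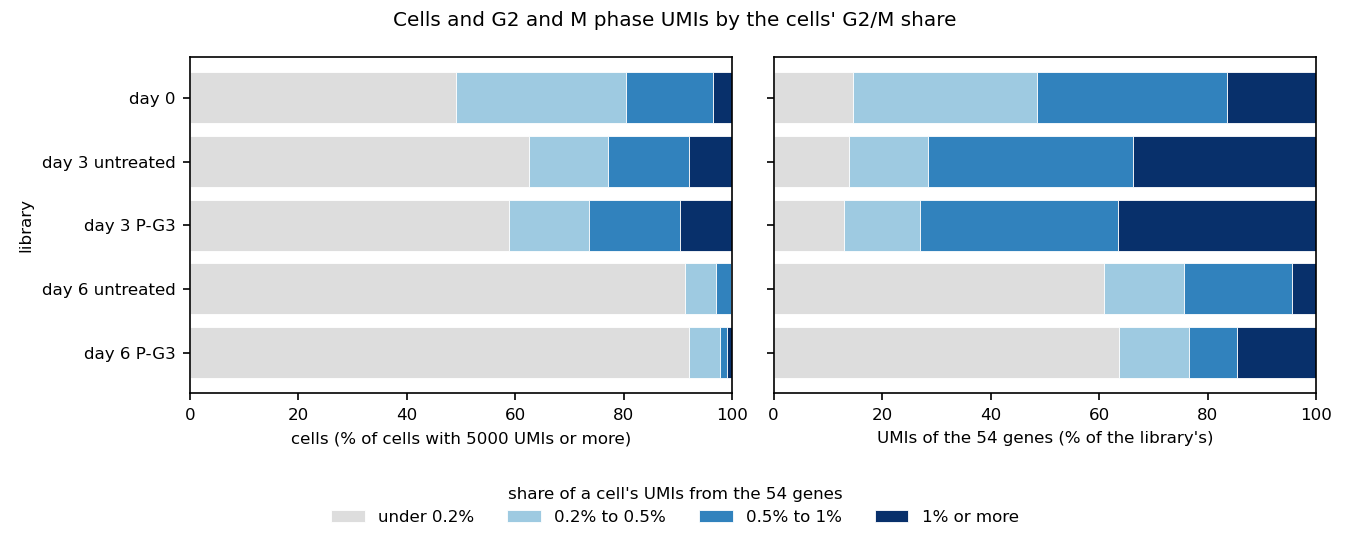
Left, the percent of cells in 4 ranges of the G2/M share in each library. Right, the percent of the 54 genes' UMIs that those cells held. The range under 0.2% holds 49.1% of day 0 cells and, without P-G3, 62.5% of day 3 and 91.4% of day 6 cells.

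Depth differed along the share, though not evenly. On day 3 untreated the median cell had 30037 UMIs under 0.2% and 47886 at 1% or more, and among cells of 20000 to 40000 UMIs 12.6% reached 0.5%, against 38.1% of those of 40000 to 80000. Within those 2 ranges of depth the day 0 shares were 5.95% and 25.4%, so day 3 was above day 0 in each. In every range of depth day 6 untreated stayed at or under 9.09%. Left out for having under 5000 UMIs were 10, 96, 93, 813 and 1461 cells in the 5 libraries. In these cells the members summed to 4854, 3780, 4942, 946 and 915 CPM, above the level of the whole library on days 0 and 3 and below it on day 6. The day 0 level rests on only 23073 UMIs of all genes, and that of day 3 untreated was close to its library's 3668 CPM. On day 0 the share of cells at 0.5% or more was 7.83% at 5000 to 20000 UMIs (interval 3.64 to 14.3%). At 20000 to 40000 it was 5.95% (4.44 to 7.76%), so the intervals overlapped.

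The members were measured against each other by ranging each gene's cells on the share of the other 53 genes. On day 3 untreated the median member had 78.5% of its UMIs in cells of at least 0.5%, and 50 of 54 had over 50%. Cenpf was the most restricted (89.98%), followed by the motors Kif2c (88.9%), Kif23 (88.8%) and Cenpe (87.6%). At the other end were Cbx5 (39.4%), Psrc1 (40%), Anp32e (44.8%) and Cks1b (46.1%). On day 0 the median was 56.0%, with Cenpf again highest (80.3%), and on day 3 with P-G3 it was 79.4%. The members' order was much the same in these libraries, with a Spearman coefficient of 0.92 between day 0 and day 3 untreated (n = 54 genes, which share cells and depth and are not replicates).

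Ube2c shows how sharp the contrast was. On day 3 untreated it had 26.4 CPM in cells under 0.2%, 176 CPM between 0.2 and 0.5%, 630 CPM between 0.5 and 1%, and 1310 CPM at 1% or more. In thinned cells, 8.94% of those under 0.2% had a Ube2c UMI and 96.2% of those at 1% or more. The part of any free RNA in the first share was not tested. For Mki67 the levels at the ends were 4.15 and 368 CPM and the shares 1.5% and 76.9%. Cbx5 had 145 and 260 CPM and 49.9% and 70.8%, so it was common in low cells too.

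Members also differed in how steeply they were higher at the top of the scale. From the range 0.5 to 1% to the range of 1% or more, Cenpf was 3.09-fold higher on day 3 untreated and 4.44-fold on day 0. Gas2l3 (2.53-fold), Kif23 (2.31-fold), Cdc20 (2.27-fold) and the B-type cyclins Ccnb2 (2.20-fold) and Ccnb1 (2.19-fold) followed on day 3. For Hmgb2, Tmpo, Anp32e, Cks1b and Cbx5 the ratio was 1.33, 1.21, 1.15, 1.15 and 0.97, Cbx5 being the only member under 1 on day 3 untreated. The S phase genes, which are not part of the share, went over a peak. Over the 4 ranges the 44 genes summed to 692, 2665, 3615 and 2731 CPM on day 3 untreated. On day 0 they summed to 1263, 3535, 3727 and 2326 CPM.

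**Figure D3:**
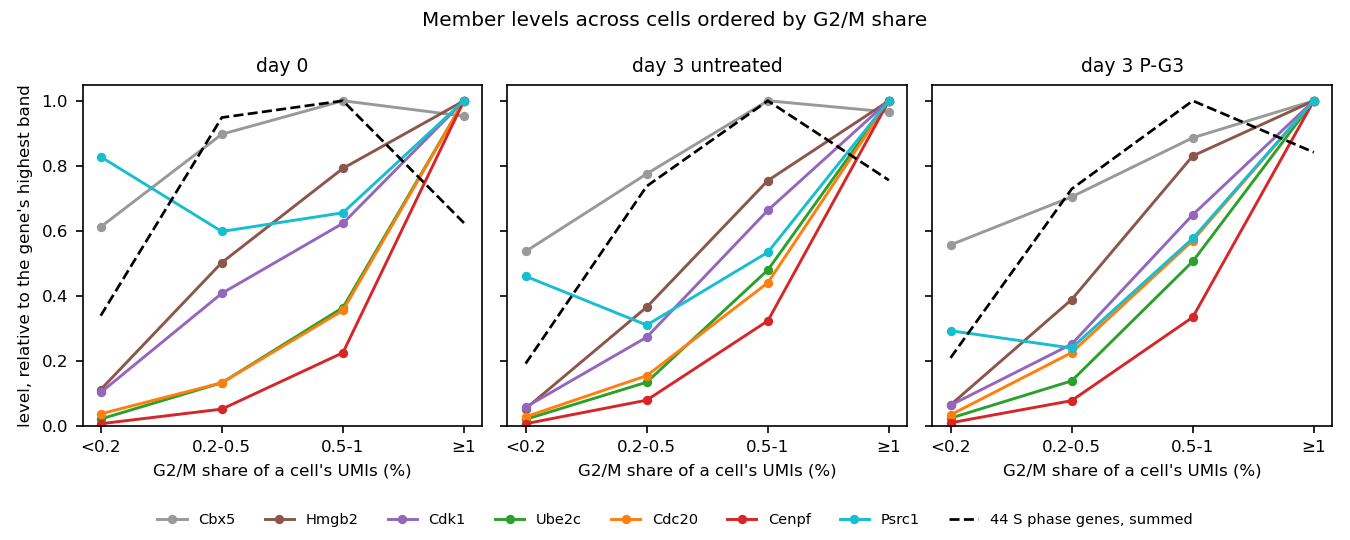
Level of 7 members and of the summed S phase genes over 4 ranges of the cells' G2/M share, each relative to its highest range, in the libraries of days 0 and 3. Cenpf bends upward most at the right end, Hmgb2 and Cdk1 climb more evenly, the S phase sum is highest between 0.5 and 1%, and Psrc1 on day 0 is high at the left end too.

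Psrc1, a spindle protein, stood apart. On day 0 it had 24.1 CPM in cells under 0.2% and 21.1 CPM in cells of at least 0.5%, so it did not separate them. On day 3 untreated these levels were 15.2 and 22.9 CPM, and on day 6 untreated 2.54 and 11.0 CPM. Its library levels were 21.2, 16.6, 13.7, 3.05 and 1.75 CPM, a day 6 to day 3 ratio of -2.12. It was the only member with under 50% of its UMIs in cells of at least 0.5% on day 3 untreated that was also at least 2-fold lower on day 6.

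Nusap1 differed in another way. In cells under 0.2% it had 1.51 CPM on day 0, 17.95 CPM on day 3 untreated, 17.1 CPM on day 3 with P-G3, 0.775 CPM on day 6 untreated and 0.949 CPM on day 6 with P-G3. Both day 3 libraries were thus high in cells that held few UMIs of the other members, in which Ube2c was level between day 0 and day 3 untreated (27.0 and 26.4 CPM). In cells of at least 0.5% Nusap1 had 120 CPM on day 0 and 271 CPM on day 3 untreated.

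The genes most restricted to high cells were also those that differed most between days 3 and 6. Cells of at least 0.5% were 23.0% of untreated cells on day 3 and 3.02% on day 6. Library sums of genes held mainly by such cells must then differ more, so the relation is given as a description. The Spearman coefficient between a member's percent of UMIs in cells of at least 0.5% on day 0 and its day 6 to day 3 untreated log2 ratio, which come from different libraries, was -0.71 (n = 54 genes; -0.76 with the percent on day 3, which shares a library with the ratio). Of 10 members with under 40% on day 0, 7 were the ones that were less than 2-fold lower, and the other 3 were Psrc1, Hjurp and Tmpo. Gas2l3 lay off the pattern on the other side, with 79.4% and a ratio of -1.46.

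**Figure D4:**
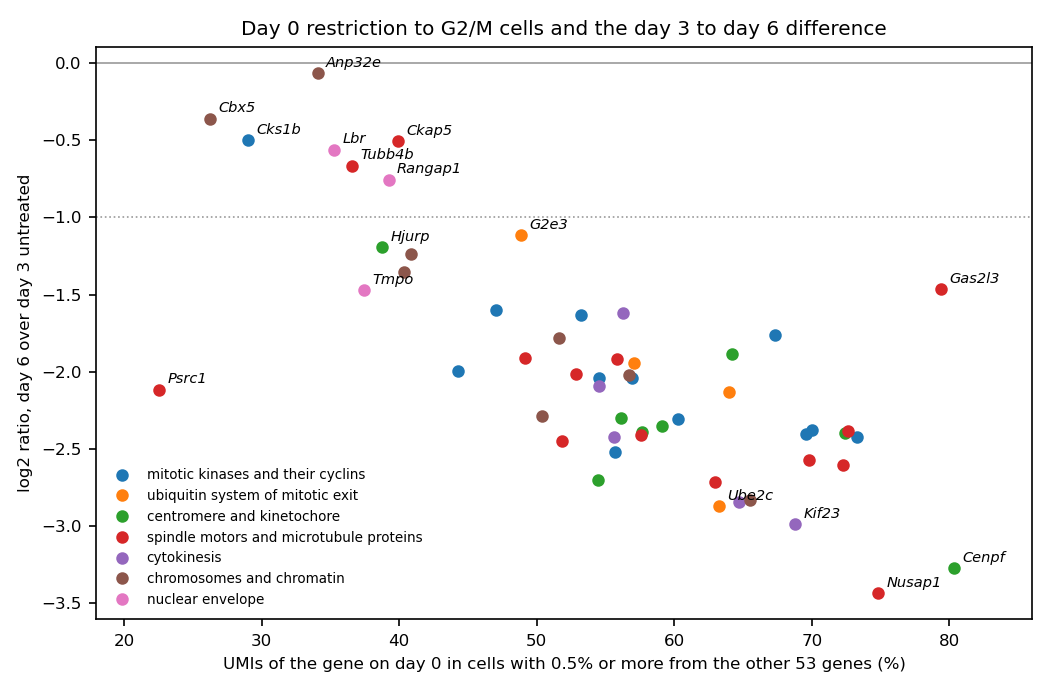
For each of the 54 genes, the percent of its day 0 UMIs in cells with at least 0.5% of UMIs from the other 53 genes (x axis) against its log2 ratio of day 6 over day 3 untreated (y axis), coloured by role; the dotted line is 2-fold lower. The 7 genes above the dotted line all lie under 40%, and Psrc1 lies apart at the lower left.

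Levels were also compared within ranges of the share. Since the other 53 members set the range of a cell, this choice itself brings the members' levels within a range closer together, and the values are given as a description. For day 6 against day 3 untreated the median over 52 members was -0.65 in cells under 0.2% and -0.38 in cells of at least 0.5%, against -2.10 over all cells. In the cells of at least 0.5% on day 6, Ube2c had 350 CPM (807 CPM on day 3), Mki67 had 190 CPM (268 CPM) and Hmgb2 had 842 CPM (915 CPM). These day 6 values rest on 43, 47 and 37 cells, since each gene was ranged on the other 53. In cells under 0.2% Hmgb2 was higher on day 6 (90.4 CPM) than on day 3 (58.5 CPM). For day 3 against day 0 the medians had opposite signs, -0.33 in cells under 0.2% and 0.25 in cells of at least 0.5%.

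Day 3 untreated cells at 1% or more were also compared with the other cells, for genes of at least 20 CPM in the former. Members, other mitotic genes, regulators, S phase genes and cell type markers were first left out. The highest ratios were then those of Fam83d (86.6 and 11.3 CPM, log2 2.84), Sapcd2 (2.82), Lockd (2.47), Mxd3 (2.41), Prr11 (2.39), Kpna2 (2.37), Arhgap19 (2.34), Iqgap3 (2.28), Bora (2.11) and Mastl (2.06). Bora is an activator of Plk1, Mastl the kinase Greatwall of mitotic entry, and Lockd a noncoding RNA gene near Cdkn1b. With no list left out, 43 of the 100 highest genes were members, which chose the cells, 35 were other mitotic genes and 0 were S phase genes. Adipocyte markers were lower in high cells, but their sum was highest between 0.2 and 0.5% in both day 3 libraries. On day 3 untreated they summed to 9715 CPM under 0.2% and 10319 CPM between 0.2 and 0.5%. Their sum was then 6638 CPM between 0.5 and 1%, and 4523 CPM at 1% or more. With P-G3 on day 3 the sums in the same order were 14539, 15194, 9869 and 7192 CPM. Fabp4, a fatty acid carrier of adipocytes, was still at 3660 CPM in the day 3 untreated cells of 1% or more, against 30.4 CPM in the whole day 0 library.

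Exposure to P-G3 was compared with no exposure on each day. On day 3 no member was 2-fold apart: 29 of 52 were higher and 23 lower with a median of 0.03 (0 at least 2-fold higher, background 0.0995%, and 0 at least 2-fold lower, background 2.23%). The summed level was 1.07-fold higher. All genes together had a median of -0.21 here, a shift that TMM and median-of-ratios scaling take out (0.01 and 0.04). Under these 44 and 45 of 52 members were higher, with medians of 0.26 and 0.29. The direction of single members therefore depends on the scaling, and ratios are best read against the median of all genes.

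The ratio went along with transcript length. Over all 9044 genes the Spearman coefficient with the length of the longest coding transcript was -0.61, and over the 52 members it was -0.59. The 12 members of up to 2000 nt had a median of 0.32 (0.07 for all genes of that length), the 22 of 2000 to 4000 nt 0.05 (-0.21), and the 18 longer ones -0.13 (-0.45). Relative to genes of the same length the members' median was 0.29, with 49 of 52 higher. The part of RNA quality, library preparation or the polymer in this trend was not tested.

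The 3 highest members were Ccnb2 (28.6 CPM untreated, 40.3 with P-G3, 0.48), Cenpa (69.5 and 95.7 CPM, 0.46) and Cdc20 (52.3 and 71.3 CPM, 0.44). All 3 have short transcripts, and relative to their length they were at 0.43, 0.41 and 0.45. The 3 lowest were Hjurp (33.2 and 20.3 CPM, -0.68), Nek2, a centrosome kinase under the level filter (7.73 and 5.57 CPM, -0.41), and Kif11 (36.3 and 28.1 CPM, -0.36), next to the cytokinesis activator Ect2, also at -0.36. Relative to length Kif11 was at 0.05 and Hjurp still at -0.28. By role, 10 of 11 tested kinases and cyclins were higher and 0 of 3 nuclear envelope genes, under total-count scaling. Of all 9044 genes, 2575 were higher under this scaling. With TMM scaling these roles had 11 of 11 and 3 of 3 higher, and all genes 4608 of 9044.

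In cells, the share at or above 1% was 7.97% untreated and 9.66% with P-G3, with intervals that overlap slightly, and the share at or above 0.5% was 23.0% and 26.4%, with intervals that do not. By depth the order was not uniform: P-G3 was above untreated among cells of 5000 to 20000 UMIs (16.8 and 11.0%) and of 20000 to 40000 (15.9 and 12.6%), and below it among cells of 40000 to 80000 (35.4 and 38.1%) and above 80000 (38.2 and 39.4%). Within cells of at least 0.5% the members' median ratio was -0.01, and within cells under 0.2% it was 0.03. Of the regulators, 12 of 13 were lower with P-G3 (median -0.45), as were 6469 of all 9044 genes (median -0.21). Relative to genes of the same length their median was -0.05, with 4 of 13 higher.

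On day 6, again, no member was 2-fold apart with P-G3 (0 higher, background 0.0885%, and 0 lower, background 4.29%), with 21 of 52 higher, 31 lower and a median of -0.08, where all genes had -0.34. TMM and median-of-ratios scaling gave 37 and 40 higher with medians of 0.22 and 0.26, and 44 of 52 were higher relative to genes of their length (median 0.25). The summed levels, 1237 and 1223 CPM, were nearly equal. The coefficient with length was -0.37 over the members and -0.62 over all genes.

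Tubb4b (148 and 187 CPM, 0.34), Cenpa (18.1 and 22.6 CPM, 0.30) and Prc1 (8.93 and 10.8 CPM, 0.25) were the highest, and Hjurp (14.0 and 8.02 CPM, -0.73), Kif11 (5.26 and 3.20 CPM, -0.57) and Psrc1 (3.05 and 1.75 CPM, -0.56) the lowest. Relative to length Psrc1 (-0.57) and Hjurp (-0.19) were still low and Kif11 was at -0.04. Under total-count scaling 18 of 52 members were higher with P-G3 on both days and 20 lower on both. Another 11 were higher on day 3 only and 3 on day 6 only. These counts depend on the scaling: with TMM scaling 44 of 52 were higher on day 3 and 37 on day 6. The same tally was not made for all genes, of which 2575 of 9044 were higher on day 3 under total-count scaling. Hjurp was low on both days in cells under 0.2% (19.2 and 11.0 CPM on day 3, 12.1 and 6.97 CPM on day 6) and in cells of at least 0.5% (58.7 and 36.7 CPM, 38.5 and 26.4 CPM).

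**Figure D5:**
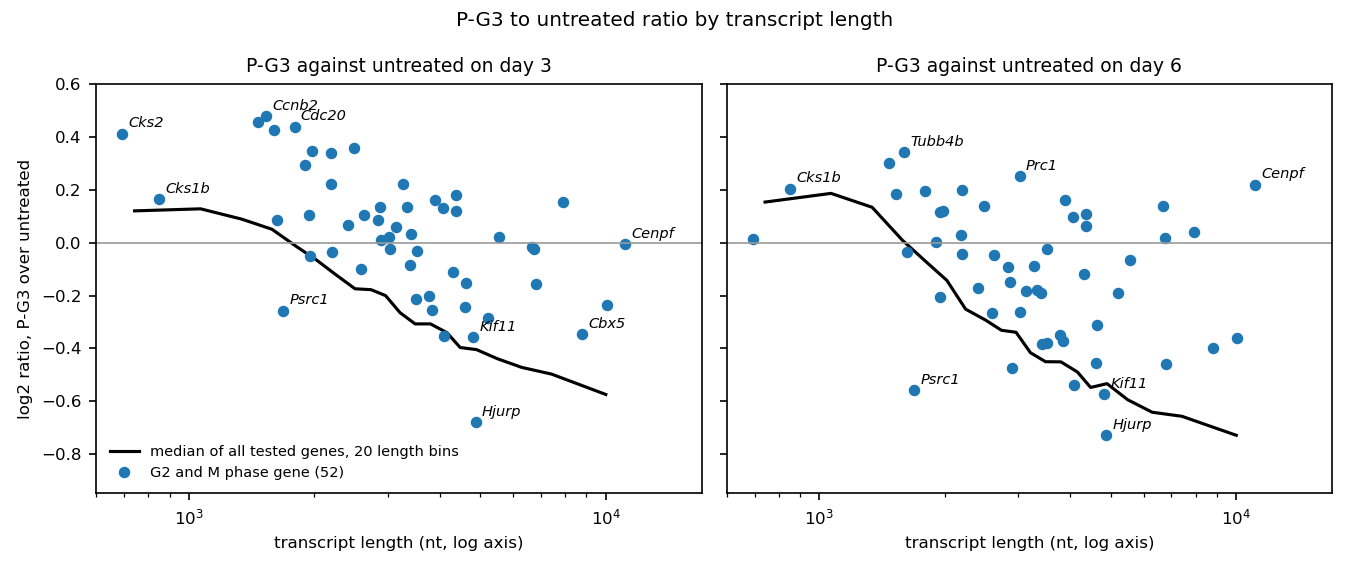
The log2 ratio of P-G3 over untreated for the 52 tested members (points) against transcript length (log axis), on day 3 (left) and day 6 (right); the line joins the medians of all tested genes in 20 bins of length. Most members lie above the line on both days, and Hjurp and Psrc1 lie below it.

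On day 6 the few high cells limit what can be said about P-G3. At 1% or more there were 5 of 1655 untreated cells and 19 of 2085 with P-G3, and at 0.5% or more 50 and 48, so the order of the 2 libraries turned with the limit and the intervals overlapped at both. Within the cells of at least 0.5% the members' median ratio was 0.46 with P-G3, with 43 of 52 higher, where more of the P-G3 cells lay above 1%; all genes were not compared in these few cells. In cells under 0.2% it was -0.10.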

How the data were processed

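The counts deposited by the authors are UMIs per gene and cell barcode, 1 filtered matrix per library, from 10x 3' libraries per the labels. The submitters' processing notes name Cell Ranger 3.1.0 and GRCm38, while the file headers name version 5.0.1; the annotation release, and whether strand was used, are not given in the sources used here. By exons of GENCODE vM21, 12 members overlap a counted gene on the other strand and 1 on the same strand. Barcodes with at least 500 genes and at most 20% mitochondrial UMIs were kept, and no doublets were removed. UMIs of kept cells were summed per library, scaled to CPM and compared as log2 ratios with 1 CPM added, for genes with a mean of at least 5 CPM. With 1 library per group no test was run; intervals are exact 95% intervals for counting error only, and 3 UMIs are the limit that a count of 0 allows. Comparisons share libraries. Cells of at least 5000 UMIs were thinned to 5000. edgeR 4.0.16 (R 4.3.3) gave only TMM factors; the rest used Python 3.11.15, numpy 2.4.6, pandas 2.3.3 and scipy 1.17.1. The scripts were tested on simulated data. Members and lists were chosen with earlier results of these data known. Genes named in each role were the most abundant member and those with the largest and smallest day 6 to day 3 ratio, with the 3 highest and lowest P-G3 ratios per day; other named genes, the ranges of the G2/M share and the ranges of depth were chosen after their values were seen.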

Additional observations from a re-analysis of the deposited data

Results flagged for a closer look

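The barcodes left out of all comparisons, for too few genes or too large a mitochondrial share, also held UMIs of the 54 genes, above the limit that a count of 0 allows. Their summed level was 1373 CPM on day 0, 763 CPM on day 3 untreated, 2411 CPM on day 3 with P-G3, 583 CPM on day 6 untreated and 548 CPM on day 6 with P-G3. These levels rest on 72829, 373564, 227293, 4123274 and 3327440 UMIs of all genes, and each lay under the level of the kept cells of its library.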

How the results depend on the processing

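Of 112 counts of members under other settings, 107 stayed within 1.5 times the reported count. For most of these 107 both counts were 0, so they say little about how a count moves. The 45 members at least 2-fold lower on day 6 than on day 3 untreated became 30 with a mean of at least 20 CPM. Without a filter on low levels they became 47. The number of members at least 2-fold higher on day 3 than on day 0, which was 2, became 1 with TMM scaling, 1 with median-of-ratios scaling, 1 with a mean of at least 20 CPM and 1 when every cell counted the same. With every cell counted the same, 1 member (Psrc1, -1.16) in place of 0 was at least 2-fold lower with P-G3 on day 6. The share of cells depends on its limit: at 0.5% it was 19.6%, 23.0%, 26.4%, 3.02% and 2.30% in the libraries of day 0, day 3 untreated, day 3 P-G3, day 6 untreated and day 6 P-G3, and at 2% it was 0%, 0.114%, 0.132%, 0% and 0.0959%. The other 30 of 40 shares moved by less than their counting interval. No paired analysis was possible because each group had 1 library. For the same reason no difference has a replicate check, and culture, library preparation and condition cannot be told apart.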
